A study of Mus musculus with 38 samples.

Results

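The 40 genes described here are interferon-stimulated genes, targets of type I and type II interferon, and they were measured in mouse high-grade serous ovarian cancer (HGSOC) by bulk RNA sequencing. They were chosen by name: a list of 40 symbols was matched to the Ensembl mouse gene IDs of the deposited tables, and all 40 had a row among the 55487 gene rows of both the tumor and the cell line table. The rule itself uses no measured value. For description they were put in 7 groups by role: Isg15 with the IFIT genes (5 genes), the OAS family (5), the Mx family (2), transcription factors with the feedback gene Usp18 (5), sensors of foreign nucleic acid (5), interferon-inducible GTPases (7) and other antiviral effectors (11). In the annotation 39 of them are protein-coding and Mx2 is a polymorphic pseudogene.

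The study asked how chemotherapy changes the omental tumors of a sensitive and a less sensitive mouse model, and 34 tumors and 4 cell line libraries were available. The 60577 line was injected into the peritoneal cavity of FVB mice and the HGS2 line into that of C57BL/6J mice, in both cases females 8 to 9 weeks old, and tumors formed on the omentum. Treated mice received 3 weekly injections that combined 20 mg/kg of carboplatin with 10 mg/kg of paclitaxel, and control mice received vehicle. Tumors were taken 1 day (TP1), 7 days (TP2) or 21 days (TP3) after the last dose, which was day 36, 42 or 56 after injection of the cells for 60577 and day 64, 70 or 84 for HGS2. The groups held 3 TP1 control, 3 TP1 treated, 3 TP2 control, 4 TP2 treated and 4 TP3 treated tumors of 60577, and 3, 3, 4, 3 and 4 tumors of HGS2 in the same order. The 60577 and HGS2 lines were also sequenced untreated in monoculture, as 2 libraries each. All the tumors grew from these transplanted lines, so that strain, line and age of the tumor cannot be told apart in a comparison of the models, and no TP3 control was analysed here, so that treatment and time cannot be told apart when TP3 tumors are set against TP2 controls. The libraries were not tied to separate cultures or litters by the labels, and the p-values measure the spread between these samples, which may in part be technical.

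Type I interferons signal through the receptor pair IFNAR1 and IFNAR2 to a complex that holds STAT2 and IRF9 and binds a promoter element named ISRE, a repeat of GAAA. Interferon gamma, made by T cells and NK cells, signals through IFNGR1 and IFNGR2 to a shorter palindrome named GAS, and it induces IRF1 and the large families of immunity-related and guanylate-binding GTPases. The products of these genes block translation, degrade or bind viral RNA, or sense nucleic acid in the cytosol, and in tumors the same program is known to be switched on in malignant cells, macrophages and lymphocytes alike.

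The stretches upstream of 8 members are shown because they represent the roles on which the results turn, and because they differ in which of the 2 elements they hold. RefSeq (GRCm38.p6) gave a promoter window, from 250 bases before to 50 bases after the start of transcription, for 30 of the 40 members, and the last 200 bases before the start are printed 5′ to 3′ on the strand of the gene. Capitals mark GAAANNGAAA, the ISRE core with a spacing of 2 bases, on either strand, and the GAS core TTCNNNGAA, which reads the same on both strands. Where matches overlap, as the 3 of Isg15 do, the capitals run together.
Isg15, chr4:156200819-156201018, minus strand: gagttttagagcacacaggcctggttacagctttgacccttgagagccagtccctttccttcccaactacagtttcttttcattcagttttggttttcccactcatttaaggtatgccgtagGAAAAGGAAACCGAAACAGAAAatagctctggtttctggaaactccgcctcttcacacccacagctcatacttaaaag
Ifit1, chr19:34640689-34640888, plus strand: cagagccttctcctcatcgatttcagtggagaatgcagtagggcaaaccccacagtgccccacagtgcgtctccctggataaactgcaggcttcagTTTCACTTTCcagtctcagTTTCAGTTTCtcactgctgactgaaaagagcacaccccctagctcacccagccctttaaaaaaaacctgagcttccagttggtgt
Ifit3, chr19:34583329-34583528, plus strand: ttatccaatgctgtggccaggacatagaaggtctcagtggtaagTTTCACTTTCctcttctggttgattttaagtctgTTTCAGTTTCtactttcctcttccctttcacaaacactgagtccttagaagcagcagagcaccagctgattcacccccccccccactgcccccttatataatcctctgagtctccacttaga
Ifit3b, chr19:34607757-34607956, plus strand: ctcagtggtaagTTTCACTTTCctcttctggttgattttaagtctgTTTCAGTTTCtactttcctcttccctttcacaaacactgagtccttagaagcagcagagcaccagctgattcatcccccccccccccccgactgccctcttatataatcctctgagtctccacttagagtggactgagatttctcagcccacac
Oas3, chr5:120777660-120777859, minus strand: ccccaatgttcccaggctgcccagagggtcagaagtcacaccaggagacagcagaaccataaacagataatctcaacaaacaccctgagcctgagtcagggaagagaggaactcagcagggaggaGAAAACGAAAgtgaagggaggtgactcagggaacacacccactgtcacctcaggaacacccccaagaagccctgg
Irf1, chr11:53769814-53770013, plus strand: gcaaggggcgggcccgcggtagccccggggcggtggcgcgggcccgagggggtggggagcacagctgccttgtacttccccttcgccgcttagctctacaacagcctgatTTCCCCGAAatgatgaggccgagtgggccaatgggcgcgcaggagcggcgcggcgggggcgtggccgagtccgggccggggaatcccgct
Igtp, chr11:58199356-58199555, plus strand: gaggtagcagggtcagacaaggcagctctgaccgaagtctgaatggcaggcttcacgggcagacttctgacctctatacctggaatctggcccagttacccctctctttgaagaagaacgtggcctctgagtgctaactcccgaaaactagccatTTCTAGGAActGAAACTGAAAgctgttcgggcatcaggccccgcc
Tgtp1, chr11:48992247-48992446, minus strand: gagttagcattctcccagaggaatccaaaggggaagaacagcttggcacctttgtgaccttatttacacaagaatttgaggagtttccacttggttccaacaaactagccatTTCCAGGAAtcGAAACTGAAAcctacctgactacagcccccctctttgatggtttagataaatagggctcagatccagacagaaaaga
Isg15 held 3 overlapping ISRE cores starting 78, 72 and 66 bases before the start of transcription, and Ifit1 held 2, at 104 and 85 bases. Ifit3 and its near copy Ifit3b carried the same pair, at 156 and 122 bases and at 188 and 154 bases. The first bases after the start matched an annotated transcript of the gene in 25 of the 35 windows of members. Those of Ifit3 and Ifit3b did not match, so their distances rest on the RefSeq start alone. Their printed stretches were 82.1% identical over 168 bases, compared position by position with no gap allowed. Irf1 had a GAS core and no ISRE core, 90 bases before its start, and its other RefSeq window held neither. The GTPase genes Igtp and Tgtp1 had both elements side by side, the GAS core at 45 and 88 bases and the ISRE core at 34 and 77 bases before the start.

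Across the 30 members with a window, GAAANNGAAA occurred in 18 (60%), against 1079 of 27025 genes (3.99%) with a window of the same length. A gene counted where any of its windows matched, and 5 members had 2 windows. The spacing of 1 base (GAAANGAAA) occurred in 8 members and 3.70% of all genes, the spacing of 3 bases (GAAANNNGAAA) in 5 members and 3.17%, and any of the 3 spacings in 21 members (70%) and 9.91%. TTCNNNGAA occurred in 8 members (26.7%) and in 9.55% of all genes, and the 8 were Ifit2, Oas1a, Irf1, Eif2ak2, Bst2, Ifi35, Igtp and Tgtp1. By role, the spacing of 2 bases was found in 4 of 5 members with a window among Isg15 and the IFIT genes, 2 of 4 of the OAS family and 1 of 4 of the transcription factors. It was found in 3 of 3 of the sensors, 3 of 8 of the other effectors and 5 of 6 of the GTPases. In the sensors Ddx58, Eif2ak2 and Ifih1 the match began 2, 18 and 32 bases after the start of transcription. Mx1, Mx2, Dhx58, Oas2, Iigp1, Zbp1, Parp9, Rtp4, Parp14 and Usp18 had no entry. These matches describe letters in a window and were not tested as binding sites.

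Expected counts summed to between 17839635 and 49299442 per tumor (median 27358649) and to between 31633121 and 42461995 per cell line library. The filter on low counts passed 16241 genes of the tumors and 13742 of the cell lines, and all 40 members passed it in both. Values below are CPM (counts scaled to library size with TMM factors), log2 fold changes are given ± SE, and a gene was called where edgeR put its adjusted p below 0.05 with a log2 fold change above 1 in either direction. Several libraries stood apart before any comparison. 60577 TP2 treated replicate 2 was the highest of its group in 38 of the 40 members, HGS2 TP2 treated replicate 2 was the highest of all 34 tumors in 33, and the lowest library of its group was 60577 TP1 control replicate 1 in 35 members, 60577 TP2 control replicate 2 in 38 and HGS2 TP2 control replicate 2 in 38. In 3 tumors, HGS2 TP2 control replicate 2 and 60577 TP2 treated replicates 3 and 4, the structural RNA genes 7SL and 7SK took 21.5%, 20.3% and 27.4% of the counts, and the 5 pancreatic acinar markers of HGS2 TP2 control replicate 2 summed to 99093 CPM, followed by HGS2 TP1 control replicate 3 (52825 CPM) and HGS2 TP3 treated replicate 2 (52137 CPM). HGS2 TP3 treated replicate 1 is absent from the tables of the study and was left out of the main fits. The defining leukocyte marker Ptprc (CD45) was at 54.9 to 562 CPM in the tumors and at 0 to 0.0549 CPM in the cell lines. In bulk tissue, fewer cells of a type and less RNA per cell cannot be told apart, and this holds for every tumor result.

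**Figure D1:**
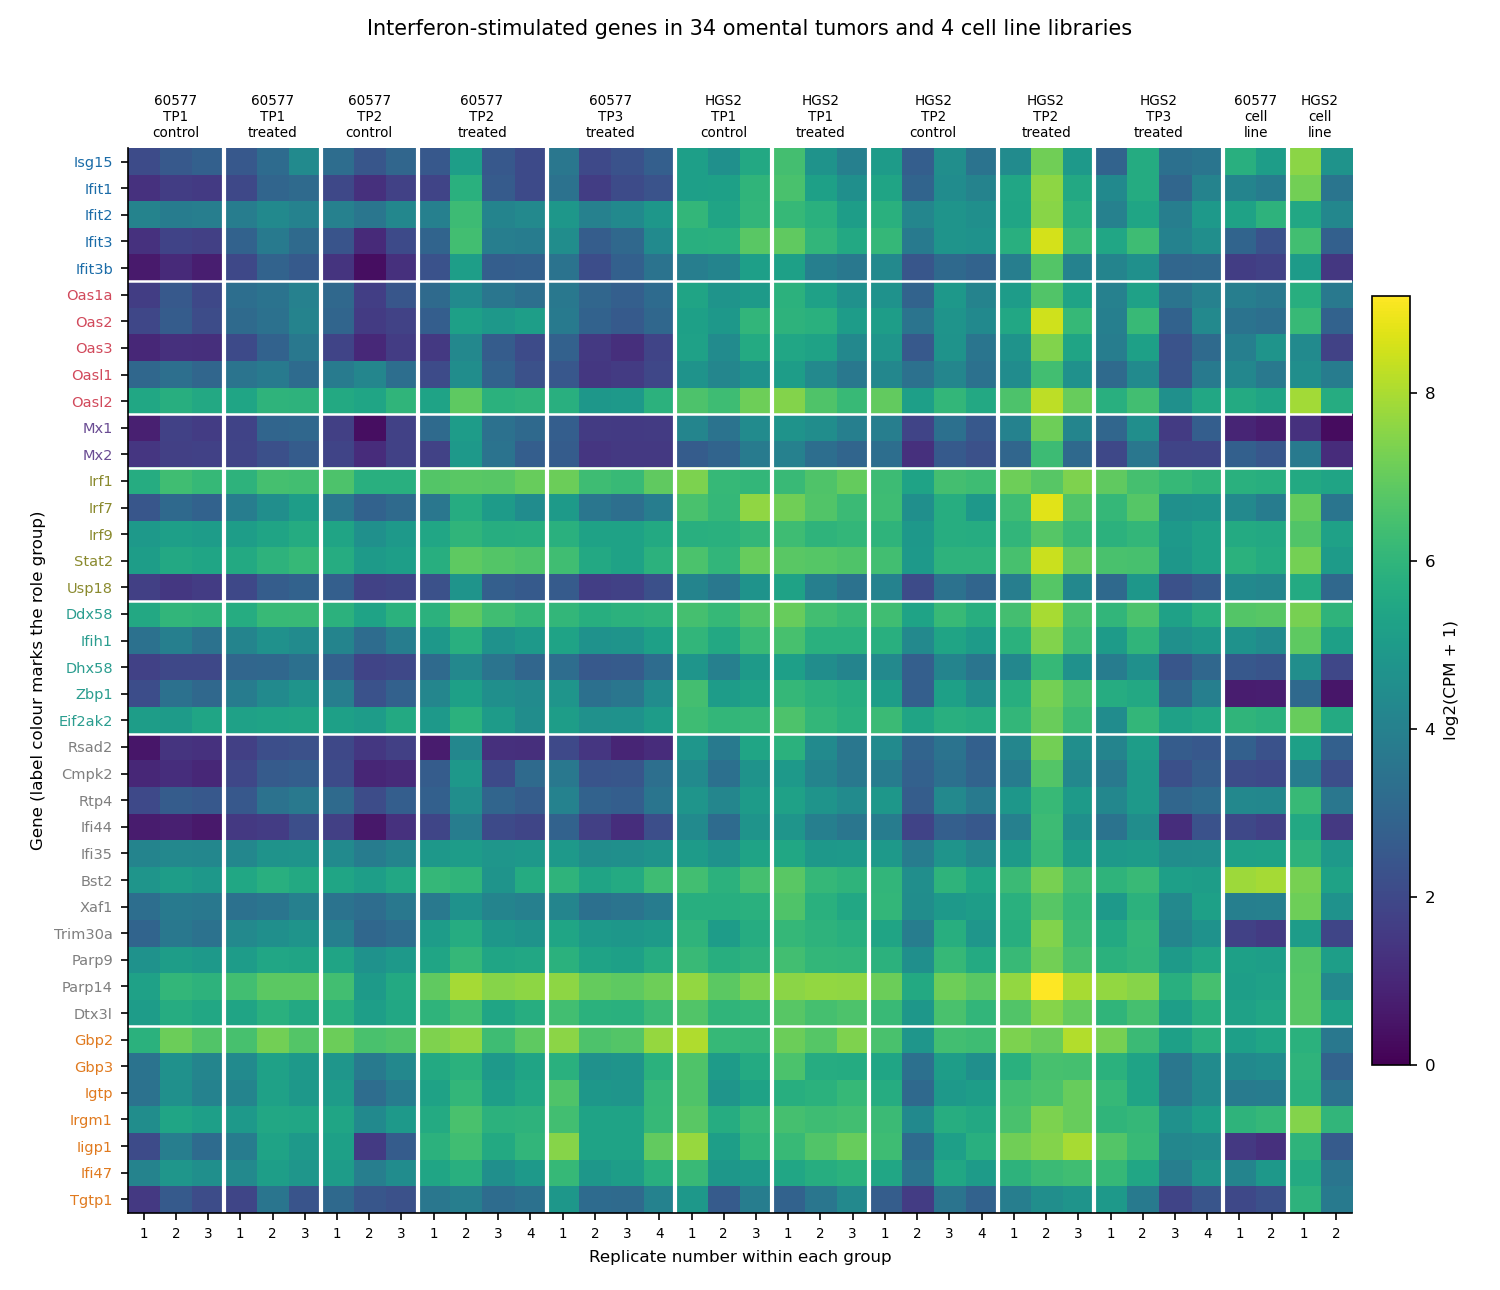
Heat map of log2(CPM + 1) for the 40 interferon-stimulated genes (rows, grouped by role with white lines between groups) in 38 libraries (columns, numbered by replicate within each group). The column of HGS2 TP2 treated replicate 2 holds the highest tumor value of 33 genes, 60577 TP2 treated replicate 2 stands above its 3 group mates, and HGS2 cell line replicate 1 is above replicate 2 in all 40 rows.

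In untreated 60577 tumors the members spanned a wide range of levels. Per kilobase of exon, the highest mean levels over the 6 controls were those of Gbp2, a guanylate-binding protein, at 40.7 ± 11.9 (SD) CPM per kb, and Bst2, the membrane protein tetherin that holds budding virus at the cell surface, at 38.1 ± 7.72 CPM per kb. Irf1, the transcription factor induced by interferon gamma, followed at 16.8 ± 4.47 CPM per kb. The lowest were Ifi44 at 0.168 ± 0.118 and Oas3 at 0.226 ± 0.0925 CPM per kb. The levels of Gbp2 and Bst2 overlapped over the 6 libraries, as did those of Ifi44 and Oas3. The 6 controls held no member that differed between TP1 and TP2 by edgeR: 0 of 40 were called, as were 0% of all genes, none had an unadjusted p-value below 0.05, limma-voom and DESeq2 called none, and the median log2 difference was 0.17.

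One day after the last dose, 8 of the 40 members rose in 60577 tumors and none fell, while 9.65% of all tested genes were called higher. They were Ifit3b, Oas1a, Oas3, Irf7, Dhx58, Zbp1, Cmpk2 and Trim30a. All 40 fold changes were above 0, with a median log2 fold change of 0.85, where the median over all genes was -0.002 and lay between -0.054 and 0.052 in each of the 14 comparisons, and 16 members (43.3% of all genes) had an unadjusted p-value below 0.05. In 20 members every treated tumor was above every control, which was true of 26% of all genes.

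Among the IFIT genes, whose products bind viral RNA and stop its translation, Ifit3b was at 0.59, 1.14 and 0.685 CPM in the TP1 controls and at 2.97, 6.44 and 5.0 CPM in the TP1 treated tumors. The lowest treated tumor lay well above the highest control, and the log2 fold change was 2.59 ± 0.81, adjusted p = 0.0237. Of the OAS enzymes, which make the second messenger 2-5A that activates RNase L, Oas1a was at 2.19, 4.85 and 3.0 CPM against 8.98, 10.1 and 15.1 CPM (1.78 ± 0.44, adjusted p = 0.00675). Oas3 was at 1.01, 1.42 and 1.34 against 3.13, 6.27 and 11.6 CPM (2.48 ± 0.78, adjusted p = 0.0237). For both enzymes the groups did not overlap, and treated replicate 3 was the highest.

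Irf7, the transcription factor that amplifies type I interferon production, was at 4.51, 7.76 and 6.3 CPM in the controls and at 13.9, 21.9 and 32.9 CPM in the treated tumors (1.89 ± 0.53, adjusted p = 0.0131). The sensor Dhx58 (LGP2), a helicase that tunes RIG-I signaling, was at 2.39, 2.92 and 2.97 against 7.04, 7.26 and 9.43 CPM (1.53 ± 0.38, adjusted p = 0.0062). Zbp1, a sensor of Z-form nucleic acid that can trigger cell death, was at 3.5, 9.69 and 7.47 against 13.4, 20.0 and 25.8 CPM (1.53 ± 0.50, adjusted p = 0.0286). All the treated tumors lay above all the controls for these 3 genes, and treated replicate 3 was the highest for Irf7 and Zbp1.

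Cmpk2, a mitochondrial nucleotide kinase next to Rsad2 in the genome, was at 1.01, 1.3 and 1.01 CPM in the controls and at 2.82, 5.21 and 5.66 CPM after treatment (2.05 ± 0.73, adjusted p = 0.0418). Trim30a, a TRIM-family protein of the mouse, was at 6.66, 11.8 and 9.92 against 19, 22.6 and 25.8 CPM (1.26 ± 0.29, adjusted p = 0.00418). Neither overlapped between the groups. None of the 7 interferon-inducible GTPases was called at TP1 by edgeR and none had an unadjusted p-value below 0.05, and their log2 fold changes ran from 0.23 for Gbp2 to 1.66 for Iigp1. The 8 calls became 3 without TP1 control replicate 1, 4 without TP1 control replicate 3 or without TP1 treated replicate 3, 5 without TP1 treated replicate 2, and 13 without TP2 treated replicate 2, which enters only through the shared estimate of the spread.

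At TP2 the count was larger: 22 of 40 members rose, none fell, and 14.8% of all genes were called higher. The median log2 fold change was 1.21 over the members and 29 had an unadjusted p-value below 0.05, against 63.2% of all genes. Groups did not overlap in 21 members, as in 25.1% of all genes. By role, the calls were 3 of 5 among Isg15 and the IFIT genes, 3 of 5 OAS genes, both Mx genes, 3 of 5 transcription factors and feedback genes, 3 of 5 sensors, 4 of 11 other effectors and 4 of 7 GTPases.

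**Figure D2:**
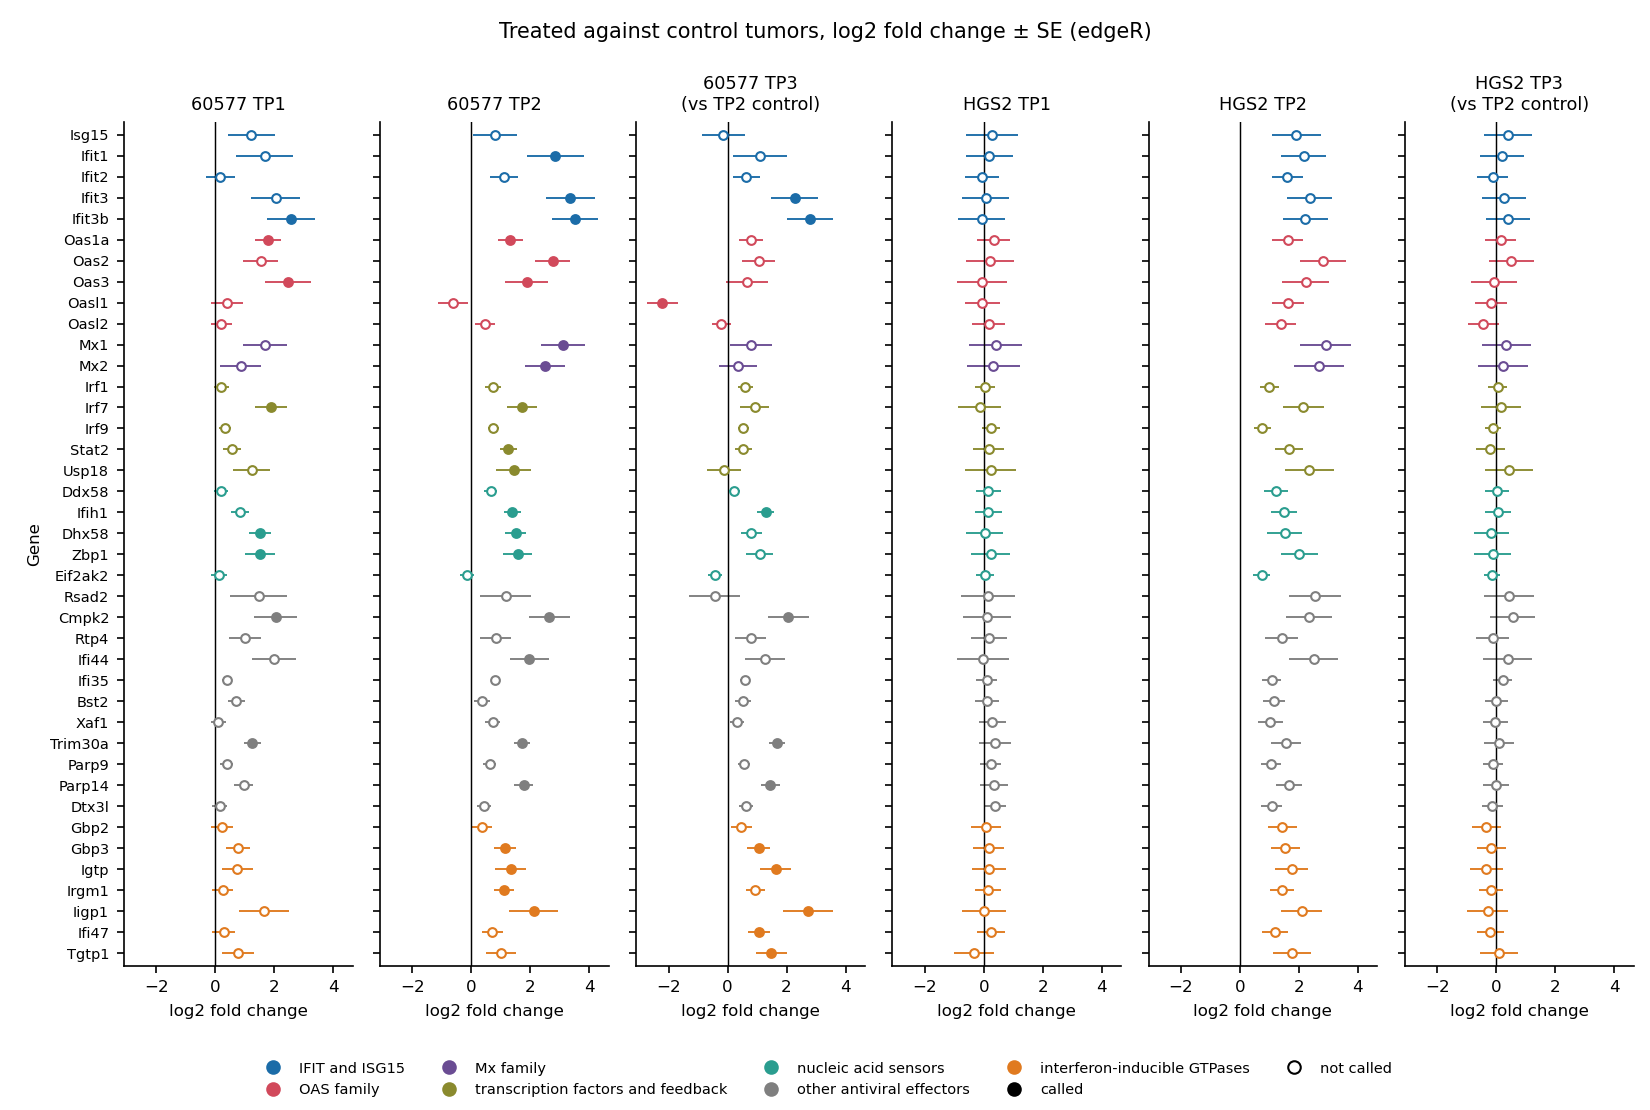
Log2 fold change ± SE (horizontal axis) of each of the 40 genes (vertical axis) between treated and control tumors, for 60577 (left 3 panels) and HGS2 (right 3 panels) at TP1, TP2 and TP3, where TP3 is set against TP2 controls. Filled points were called: 8 at TP1, 22 at TP2 and 12 at TP3 in 60577 and 0 in HGS2, where all 40 points lie above 0 at TP2.

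Ifit3b was at 1.57, 0.28 and 1.4 CPM in the TP2 controls and at 3.91, 34, 5.61 and 6.02 CPM in the TP2 treated tumors (3.51 ± 0.79, adjusted p = 0.00173). Ifit3, its partner gene, was at 4.23, 1.12 and 3.17 against 6.78, 83, 13.9 and 13.2 CPM (3.35 ± 0.83, adjusted p = 0.00312). Both separated the groups, with treated replicate 2 far above the rest of its group. Ifit1 was at 2.98, 1.4 and 2.43 against 2.69, 54.8, 5.16 and 3.17 CPM (2.85 ± 0.96, adjusted p = 0.0193), and its groups overlapped, since treated replicate 1 was below control replicate 1. Without treated replicate 2 the log2 fold change of Ifit1 was 0.68, with an adjusted p-value of 0.274. Isg15, the ubiquitin-like modifier whose promoter carries 3 ISRE cores, was at 8.75, 4.42 and 7.04 CPM against 4.81, 34.3, 4.72 and 3.17 CPM and was not called (0.79 ± 0.74, adjusted p = 0.37). Outside replicate 2 its treated tumors lay within or below the range of the controls.

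Both Mx genes, of a family of dynamin-like GTPases that trap viral nucleocapsids, rose at TP2. Mx2 is annotated as a polymorphic pseudogene, and whether either gene makes a working protein in these mice was not tested. Mx1 was at 2.36, 0.28 and 2.39 CPM in the controls and at 7.89, 32.1, 9.64 and 7.83 CPM in the treated tumors (3.1 ± 0.75, adjusted p = 0.00285). Mx2 was at 2.65, 1.21 and 2.43 against 2.47, 29.2, 10.3 and 5.74 CPM (2.5 ± 0.68, adjusted p = 0.00601). The Mx1 groups were clearly apart, whereas the lowest treated value of Mx2 was below the highest control value. Mx1 and Mx2 stayed called in all 28 alternative settings that were run for this comparison.

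Oas2 was at 6.91, 1.99 and 2.51 CPM in the TP2 controls and at 5.67, 35.9, 28.5 and 34.3 CPM in the TP2 treated tumors (2.76 ± 0.59, adjusted p = 0.00123). Treated replicates 2, 3 and 4 were far above the controls, and replicate 1 fell within their range. Oas1a was at 7.6, 2.27 and 4.45 against 8.0, 20.0, 10.9 and 9.23 CPM (1.32 ± 0.42, adjusted p = 0.0135) and Oas3 at 2.69, 1.06 and 2.06 against 1.9, 18.1, 5.36 and 3.21 CPM (1.87 ± 0.73, adjusted p = 0.0373). Oas1a separated the groups by a small margin and Oas3 did not separate them. The last 2 members of the family were not called, Oasl1 at -0.61 ± 0.51 and Oasl2 at 0.46 ± 0.33 on the log2 scale. Without treated replicate 2 Oasl1 was called lower, at a log2 fold change of -1.57 (adjusted p = 0.00174).

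Irf7 was at 11.5, 6.34 and 7.95 CPM in the controls and at 11.3, 50.3, 31.2 and 20.7 CPM after treatment at TP2 (1.71 ± 0.50, adjusted p = 0.00932), where treated replicate 1 lay just below control replicate 1. Stat2, the partner of IRF9 in the complex that reads the ISRE, was at 50.3, 31 and 33.6 against 52.9, 116, 103 and 94.8 CPM (1.24 ± 0.29, adjusted p = 0.00197), with no overlap. Usp18, the protease that removes ISG15 and dampens receptor signaling, was at 5.83, 2.52 and 2.8 against 3.84, 25.8, 5.8 and 5.1 CPM (1.43 ± 0.58, adjusted p = 0.0464). The Usp18 groups overlapped, and without treated replicate 2 its log2 fold change was 0.39 (adjusted p = 0.396). Irf9 and Irf1 had log2 fold changes of 0.75 ± 0.19 and 0.73 ± 0.26, past the p-value threshold (adjusted p = 0.00404 and 0.0235) but under the fold limit.

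Of the sensors, Ifih1 (MDA5), which recognizes long double-stranded RNA, was at 16.4, 8.49 and 13.6 CPM in the controls and at 28.4, 53.3, 24.6 and 29.3 CPM in the treated tumors at TP2 (1.39 ± 0.29, adjusted p = 0.000975). Dhx58 was at 5.96, 2.71 and 2.92 against 8.0, 18.5, 10.6 and 7.06 CPM (1.5 ± 0.35, adjusted p = 0.00242), and Zbp1 at 14, 3.92 and 6.22 against 17.5, 35.9, 22.3 and 20.2 CPM (1.57 ± 0.48, adjusted p = 0.0113). In all 3 the lowest treated tumor was above the highest control. Ddx58 (RIG-I) had a log2 fold change of 0.65 ± 0.22 and Eif2ak2 (PKR, the kinase that halts translation on double-stranded RNA) one of -0.14 ± 0.24, and neither was called.

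Among the other effectors, Trim30a was at 14.5, 7.28 and 8.69 CPM in the TP2 controls and at 32.1, 49.6, 27.9 and 25.1 CPM in the treated tumors, the most certain difference of the 40 (1.72 ± 0.28, adjusted p = 0.000154). Parp14, an ADP-ribosyltransferase of the interferon program, was at 81.9, 30.7 and 46.6 against 119.9, 242, 179 and 193 CPM (1.78 ± 0.32, adjusted p = 0.000357). Neither of these genes overlapped between groups. Cmpk2 was at 3.21, 0.964 and 1.11 against 5.27, 28.3, 3.2 and 7.99 CPM (2.65 ± 0.69, adjusted p = 0.00464) and Ifi44 at 2.33, 0.498 and 1.44 against 2.73, 13.7, 3.2 and 2.77 CPM (1.97 ± 0.68, adjusted p = 0.0213). The lowest Cmpk2 value of the treated tumors was level with the highest control, and without treated replicate 2 the Ifi44 log2 fold change was 1.02 (adjusted p = 0.119). Rsad2 (viperin), a radical-SAM enzyme, was at 2.95, 1.77 and 2.35 against 0.61, 17.9, 1.43 and 1.36 CPM, with 3 of 4 treated tumors below every control, and was not called (1.17 ± 0.87, adjusted p = 0.261).

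Of the GTPases, which act on the membranes around intracellular pathogens, Iigp1 was at 35.6, 1.93 and 5.35 CPM in the TP2 controls and at 58.2, 79.7, 46.3 and 64.1 CPM in the treated tumors (2.11 ± 0.82, adjusted p = 0.038). Igtp was at 31.5, 8.58 and 13.2 against 37.8, 65.2, 34.2 and 43.7 CPM (1.34 ± 0.52, adjusted p = 0.0378), Gbp3 at 27.4, 12.7 and 18.5 against 46.3, 57.2, 30.3 and 40.1 CPM (1.14 ± 0.38, adjusted p = 0.0186) and Irgm1 at 40.9, 19.1 and 29.6 against 47.9, 92.2, 58.4 and 59.1 CPM (1.1 ± 0.33, adjusted p = 0.0113). Each of the 4 separated the groups, and control replicate 1 was the control closest to the treated tumors. Gbp2, the most abundant member per kilobase in the controls, had a log2 fold change of 0.36 ± 0.36 (adjusted p = 0.409).

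The 22 calls at TP2 became 12 without TP2 control replicate 2 and 14 (13 higher and Oasl1 lower) without TP2 treated replicate 2. The labels do not say that equal replicate numbers mark pairs. Samples of equal number deviated weakly alike at TP2, with correlations of 0.121 to 0.184. With the numbers as a block in edgeR, Ifit1 (adjusted p = 0.0599), Oas3 (0.0737), Usp18 (0.0965) and Igtp (0.0659) were no longer called, which left 18. Without the 2 libraries high in 7SL and 7SK RNA the count was again 22, of which 20 were shared, and at TP1 and TP3 it was 9 and 12.

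**Figure D3:**
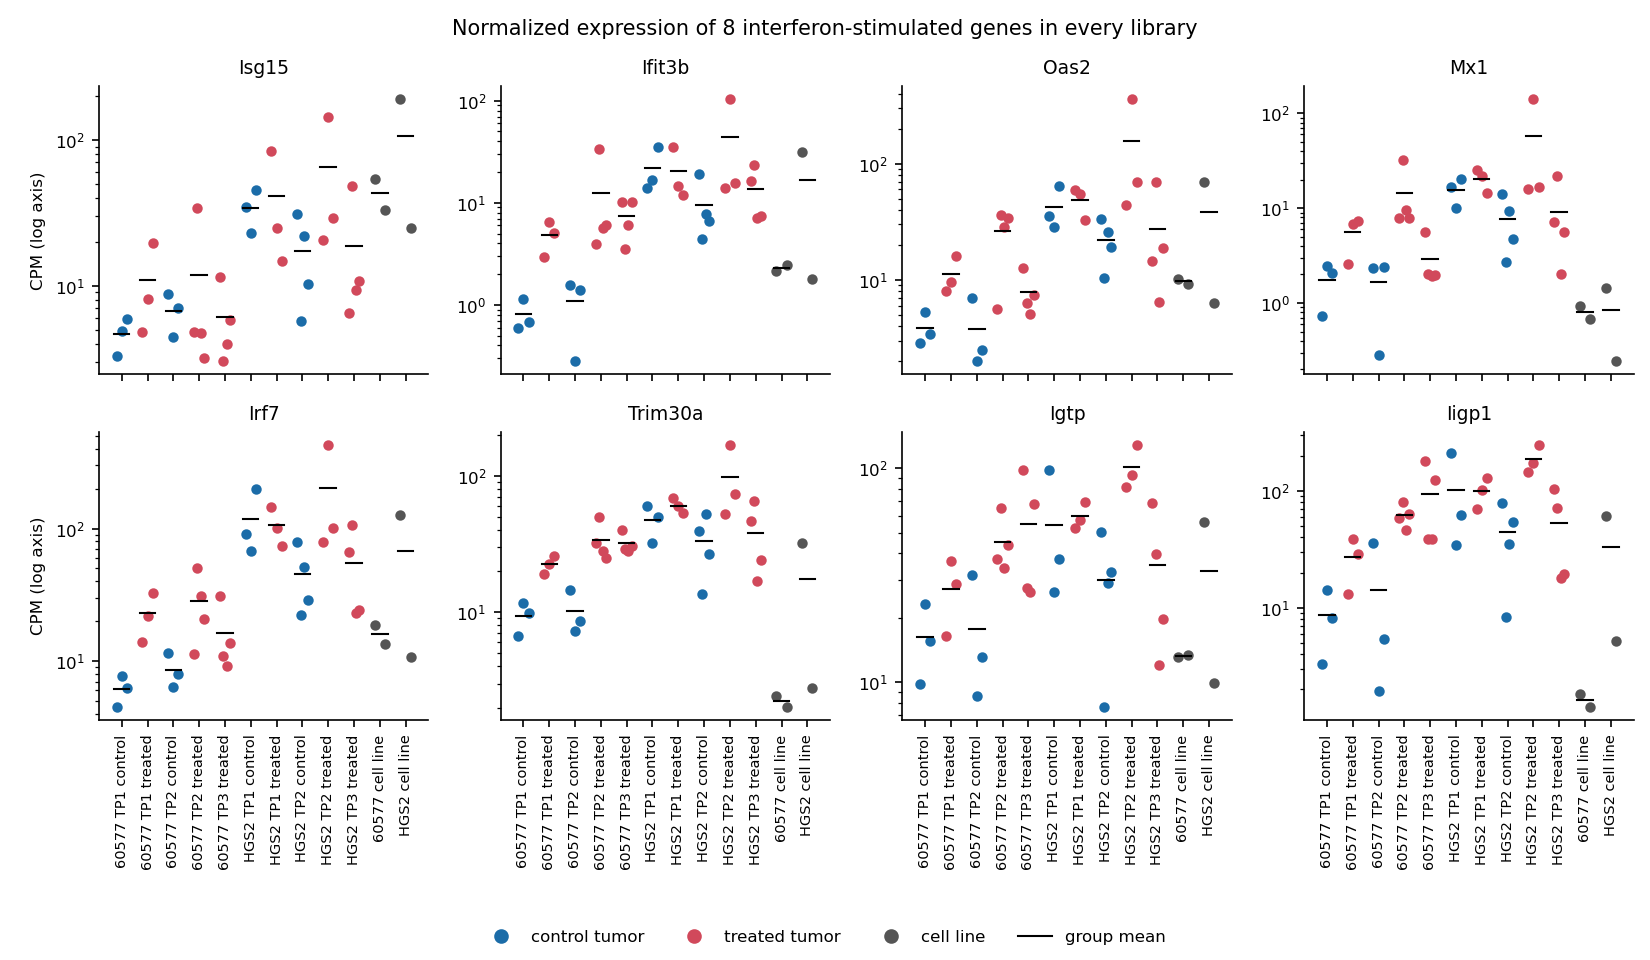
CPM (log axis) of Isg15, Ifit3b, Oas2, Mx1, Irf7, Trim30a, Igtp and Iigp1 in every library, with groups along the horizontal axis, 1 point per library and a black bar at the group mean. In 60577 the 4 TP2 treated tumors of Trim30a lie between 25.1 and 49.6 CPM, above the 3 TP2 controls at 7.28 to 14.5 CPM, while 3 of the 4 Isg15 values lie within or below the range of the controls.

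Against the TP2 controls, 11 members were higher in 60577 TP3 tumors and 1 was lower, while 14.2% of all genes were called higher and 10.2% lower. The median log2 fold change of the members was 0.78, and 20 of 40 had an unadjusted p-value below 0.05 (57.1% of all genes). In 10 members all 4 TP3 tumors were above every control, a share no larger than the 28.2% of all genes for which this held, and in 1, Oasl1, all were below, against 29.2% of all genes. GTPases made up 5 of the 11 higher calls, and no OAS, Mx or transcription factor gene was among them.

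Iigp1 was at 179, 39.1, 38.7 and 123 CPM in the TP3 tumors (2.74 ± 0.84, adjusted p = 0.0133). Igtp was at 97.9, 27.4, 26.3 and 67.9 CPM (1.63 ± 0.52, adjusted p = 0.0169), Gbp3 at 54.7, 23.9, 25.7 and 56.8 CPM (1.05 ± 0.38, adjusted p = 0.031) and Ifi47 at 68.5, 27.8, 32.9 and 54 CPM, against 31.9, 13.9 and 20.7 CPM in the controls (1.05 ± 0.37, adjusted p = 0.0265). Tgtp1, whose promoter pairs a GAS with an ISRE core as that of Igtp does, was at 7.77, 4.51 and 3.79 CPM in the controls and at 27.9, 8.24, 7.95 and 15.8 CPM at TP3 (1.49 ± 0.51, adjusted p = 0.0247). In each of the 5 genes, replicates 1 and 4 were well above replicates 2 and 3, which for Igtp and Gbp3 fell within the range of the controls, as replicate 2 of Ifi47 did. For Iigp1 and Tgtp1 replicates 2 and 3 were only just above the highest control. Irgm1 was past the p-value threshold at a log2 fold change of 0.94 ± 0.33, and Gbp2 was at 0.47 ± 0.36.

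Trim30a, at 40.4, 29.3, 27.9 and 30.8 CPM, remained above all the controls at TP3 (1.67 ± 0.28, adjusted p = 0.000166), as did Parp14 at 194, 127, 116 and 140.1 CPM (1.45 ± 0.32, adjusted p = 0.00144) and Ifih1 at 38.3, 24.2, 26 and 36 CPM (1.29 ± 0.29, adjusted p = 0.00167). Ifit3b was at 10.3, 3.49, 6.01 and 10.1 CPM (2.8 ± 0.77, adjusted p = 0.00694), Ifit3 at 21.7, 5.45, 7.56 and 19.9 CPM (2.28 ± 0.79, adjusted p = 0.0253) and Cmpk2 at 11.8, 4.22, 4.46 and 9.06 CPM (2.07 ± 0.68, adjusted p = 0.0193). Each of these 6 genes was above the 3 controls in all 4 TP3 tumors, and replicate 1 held the highest value. Oasl1, an OAS-like protein without enzyme activity that limits IRF7 translation, was at 13.1, 17.3 and 8.98 CPM in the TP2 controls and at 4.54, 1.83, 2.0 and 2.87 CPM at TP3 (-2.22 ± 0.53, adjusted p = 0.00252). All 4 TP3 tumors were below all 3 controls, and the call held in all 28 alternative settings.

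The 12 calls at TP3 became 6 without TP2 control replicate 2, 5 without TP2 control replicate 3 and 6 without TP3 treated replicate 1, and Oasl1 was the lower call in each of these. With the replicate numbers as a block, Ifit3 (adjusted p = 0.0528), Gbp3 (0.0853) and Ifi47 (0.0526) were lost and 9 calls were left, and with a correction for gene length and GC content added to the block 5 were left, against 14 of 22 in the same fit at TP2.

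Over the 3 times, Ifit3b, Cmpk2 and Trim30a were called higher at each. Oas1a, Oas3, Irf7, Dhx58 and Zbp1 were called at TP1 and TP2, and Ifit3, Ifih1, Parp14, Gbp3, Igtp and Iigp1 at TP2 and TP3. Ifit1, Oas2, Mx1, Mx2, Stat2, Usp18, Ifi44 and Irgm1 were called at TP2 alone and Ifi47 and Tgtp1 at TP3 alone, and 16 members were never called higher. The log2 fold change was largest at TP1 in 11 members, at TP2 in 23 and at TP3 in 6, and 5 of those 6 were GTPases. TP2 and TP3 share their control samples, so these counts are side-by-side values.

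The 16 members never called higher were Isg15, Ifit2, Oasl1, Oasl2, Irf1, Irf9, Ddx58, Eif2ak2, Rsad2, Rtp4, Ifi35, Bst2, Xaf1, Parp9, Dtx3l and Gbp2. They include the most abundant members per kilobase. Gbp2 was at 135, 90.1 and 98.4 CPM in the TP2 controls and at 166, 196, 77.9 and 116 CPM in the TP2 treated tumors, and Bst2 at 40.8, 33.6 and 44.3 against 68, 62.9, 25.6 and 48.5 CPM (0.37 ± 0.27, adjusted p = 0.258). Both overlapped between the groups. Irf1 was at 94.6, 53.3 and 54 against 103, 111, 107 and 129 CPM, and its treated tumors lay above all the controls, with a fold change under the limit. Irf9, Ifi35, Xaf1 and Parp9 also separated the groups at TP2, with log2 fold changes of 0.75 ± 0.19, 0.81 ± 0.16, 0.73 ± 0.25 and 0.62 ± 0.21. Ifit2 was at 15.1, 11.1 and 17.7 against 14.7, 76.6, 16.5 and 19 CPM (1.1 ± 0.47, adjusted p = 0.0542) and Rtp4, a chaperone of chemosensory receptors with antiviral activity, at 7.9, 3.33 and 5.68 against 5.95, 21.8, 6.84 and 5.46 CPM (0.82 ± 0.52, adjusted p = 0.182). In both, treated replicate 2 was the only tumor far above the controls.

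**Figure D4:**
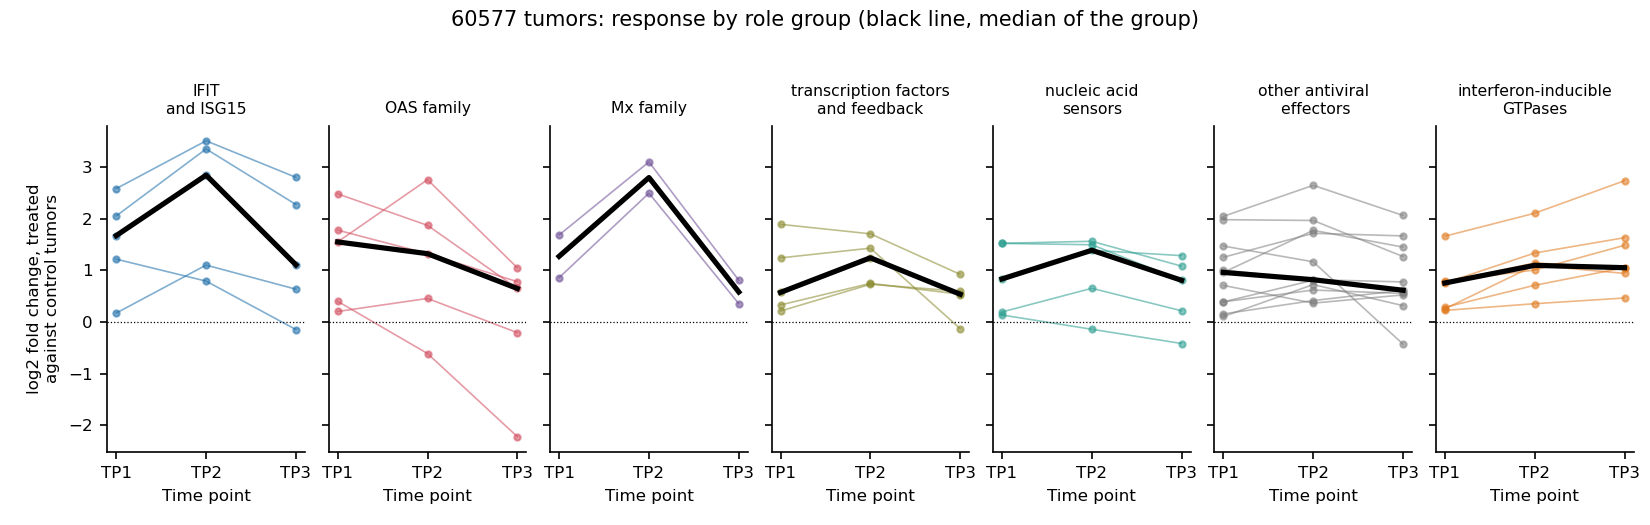
Log2 fold change of treated against control 60577 tumors (vertical axis) at TP1, TP2 and TP3 (horizontal axis, TP3 against TP2 controls) for the members of each role group, with the median of the group in black. The Mx median was 1.27, 2.80 and 0.58 at the 3 times and the median of the GTPases 0.76, 1.10 and 1.05.

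Treated tumors were also compared directly between times. From TP1 to TP2, edgeR called 0 of 40 members (6.02% of all genes in either direction), although 10 had an unadjusted p-value below 0.05 (37.3% of all genes), and limma-voom called 0 and DESeq2 1 (Mx2). The median log2 difference was 0.56. Without TP1 treated replicate 2, TP2 treated replicate 1 or TP2 treated replicate 2 the count was 1, 3 and 2.

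From TP2 to TP3, 5 members fell and none rose, against 4.4% of all genes called lower. Mx1 went from 7.89, 32.1, 9.64 and 7.83 CPM at TP2 to 5.62, 2.03, 1.94 and 1.99 CPM at TP3 (-2.29 ± 0.64, adjusted p = 0.0158), and Mx2 from 2.47, 29.2, 10.3 and 5.74 to 5.26, 1.7, 1.87 and 1.84 CPM (-2.14 ± 0.60, adjusted p = 0.0159). Mx1 did not overlap between the times, and Mx2 did. Oas2 went from the TP2 values above to 12.6, 6.38, 5.07 and 7.34 CPM (-1.71 ± 0.51, adjusted p = 0.02), Oasl1 from 3.26, 21.4, 6.35 and 3.81 to 4.54, 1.83, 2.0 and 2.87 CPM (-1.61 ± 0.50, adjusted p = 0.0238) and Usp18 from the values above to 5.15, 2.26, 2.39 and 3.75 CPM (-1.56 ± 0.53, adjusted p = 0.0347). For Oas2, Oasl1 and Usp18 the highest TP3 tumor lay above the lowest TP2 tumor. The median log2 difference was -0.45 over all members and 0.30 over the GTPases, of which 5 of 7 were above 0 and none was called. Without TP2 treated replicate 2 only Oas2 was still called and the median was 0.06, without TP3 treated replicate 2, 3 or 4 the count was 2, 2 and 3, and without the libraries high in 7SL and 7SK RNA it was 2.

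HGS2 tumors gave no call at any time. At TP1 edgeR called 0 of 40 members (0% of all genes), the median log2 fold change was 0.16, no member had an unadjusted p-value below 0.05 (2.54% of all genes) and limma-voom and DESeq2 called none. The TP1 groups of HGS2 overlapped in all 40 members. At TP3 against TP2 controls the calls were again 0 of 40 (0% of all genes) with a median of -0.01, no unadjusted p-value below 0.05 (2.5% of all genes) and no call by the other tools. In TP3 treated replicate 1, outside the fits, 10 of 40 members were above every TP2 control, as were 30.2% of all genes.

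At TP2 edgeR also called 0 of 40 (0% of all genes) in HGS2, and so did limma-voom and DESeq2. All 40 log2 fold changes were above 0, however, between 0.73 for Eif2ak2 and 2.91 for Mx1 with a median of 1.63, and all 40 had an unadjusted p-value below 0.05, which was true of 7.59% of all genes. The smallest adjusted p-value was 0.588. Limma-voom and DESeq2 each gave an unadjusted p-value below 0.05 in 38 members. In 26 members all 3 treated tumors were above all 4 controls, as in 6.39% of all genes.

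Oas2 was at 33.4, 10.4, 25.6 and 19.2 CPM in the HGS2 TP2 controls and at 43.8, 357 and 69 CPM in the TP2 treated tumors (2.82 ± 0.78, adjusted p = 0.588). Irf7 was at 79.2, 22.4, 51.4 and 28.8 against 78.8, 426 and 100.2 CPM (2.15 ± 0.69, adjusted p = 0.588) and Mx1 at 14, 2.71, 9.35 and 4.7 against 15.8, 139.9 and 16.7 CPM (2.91 ± 0.86, adjusted p = 0.588). Replicate 2 was several times higher than replicates 1 and 3 for each of these, and the treated tumors of Irf7 overlapped the controls. In the GTPases the treated tumors were closer to each other: Iigp1 was at 79.1, 8.25, 35.1 and 54.2 CPM in the controls and at 145, 174 and 247 CPM in the treated tumors (2.09 ± 0.71, adjusted p = 0.588), and Igtp at 50.4, 7.67, 29 and 32.9 against 81.7, 93.2 and 128 CPM (1.75 ± 0.55, adjusted p = 0.588). Replicate 3 was the highest for both GTPases, and neither gene overlapped between groups. Without treated replicate 2 the median log2 fold change of the members was 0.88 and 10 had an unadjusted p-value below 0.05, and without control replicate 2 they were 1.41 and 33. Ptprc was at 138, 77.8, 429.7 and 220.2 CPM in these controls and at 299, 411 and 389 CPM in the treated tumors, the T cell markers summed to 6.16 to 63.8 against 54.3 to 78.2 CPM. Other marker sums separated these groups. Macrophage markers were at 995 to 1522 CPM in the controls and 1610 to 2169 CPM in the treated tumors. NK markers were at 1.01 to 12.3 against 14.8 to 16.8 CPM and neutrophil markers at 11.2 to 43.7 against 43.9 to 54.7 CPM. Plasmacytoid dendritic markers were at 23.3 to 66.8 against 78.1 to 163 CPM. Most of that sum was the member Bst2, alone at 22.1 to 63.6 against 75.1 to 154 CPM, so it repeats a member. Tumor epithelium markers were at 336 to 745 against 150 to 220.3 CPM and mesothelium markers at 1260 to 2123 against 298 to 510 CPM. The part of these cells in the result was not tested. With the replicate numbers of HGS2 TP2 as a block, the count called was also 0 and 30 members had an unadjusted p-value below 0.05.

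Between the TP1 and TP2 controls of HGS2 a shift was seen in direction alone. All 40 members had a log2 difference below 0 from TP1 to TP2 controls, with a median of -0.80. Of these, edgeR called none (0% of all genes), and limma-voom and DESeq2 made no call. An unadjusted p-value below 0.05 was found in 1 member, against 3.5% of all genes. With each library left out in turn the median ran from -1.11 to -0.53. HGS2 TP1 control replicate 1 was high in the GTPases, with Iigp1 at 212 CPM against 34.3 and 62.4 CPM in the other two TP1 controls and Gbp2 at 263 CPM against 68.4 and 68.0 CPM.

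The difference in response between the models was tested as an interaction. At TP1 the HGS2 response was lower than the 60577 response in 38 of 40 members with a median log2 difference of -0.67, but edgeR called 0 of 40 (1.45% of all genes), 3 had an unadjusted p-value below 0.05 (18.8% of all genes), and limma-voom and DESeq2 called none. At TP2 the median was 0.39, 31 members were above 0, and edgeR called 0 of 40 (6.9% of all genes), limma-voom 0 and DESeq2 1, with an unadjusted p-value below 0.05 in 2 members (29% of all genes). The largest difference was that of Oasl1, 2.23 ± 0.79, adjusted p = 0.0668. Without 60577 TP2 treated replicate 2 the count at TP2 was 3, and without HGS2 TP3 treated replicate 3 it was 1. Without the libraries high in 7SL and 7SK RNA it was 0 and the median was -0.07, on the other side of 0. The members called in 60577 and not in HGS2 were therefore not shown to differ between the models in their response.

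Without chemotherapy the models differed in level. Over all controls, 26 of the 40 members were higher in HGS2 than in 60577 and none was lower, while 13.2% of all genes were called higher. The median log2 difference was 1.76 over the members and 0.05 over all genes, 36 members had an unadjusted p-value below 0.05 (56.7% of all genes), and in 12 members all 7 HGS2 controls were above all 6 60577 controls, which held for 10.9% of all genes. All 5 genes of Isg15 and the IFIT group were called, 3 of 5 OAS genes, both Mx genes, 2 of 5 transcription factors and feedback genes, 3 of 5 sensors, 7 of 11 other effectors and 4 of 7 GTPases.

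The largest difference was that of Ifit3, 1.12 to 4.23 CPM (median 2.46) in the 60577 controls and 12.2 to 111 CPM (median 54.3) in the HGS2 controls (4.31 ± 0.67, adjusted p = 9.08e-06). Ifit3b was at 0.28 to 1.57 CPM (median 0.914) and at 4.41 to 34.8 CPM (median 14) (3.95 ± 0.65, adjusted p = 1.74e-05), and Ifit1 at 1.4 to 2.98 CPM (median 2.06) and at 6.74 to 63.2 CPM (median 35.1) (3.89 ± 0.72, adjusted p = 7.89e-05). In these 3 genes the lowest HGS2 control was above the highest 60577 control. Isg15 was at 3.3 to 8.75 CPM (median 5.39) and at 5.69 to 45.4 CPM (median 22.9) (2.11 ± 0.63, adjusted p = 0.00715), and Ifit2 at 11.1 to 17.7 CPM (median 14.5) and at 17.3 to 64.9 CPM (median 39.3) (1.5 ± 0.39, adjusted p = 0.00253). Those 2 overlapped through a single HGS2 library, TP2 control replicate 2.

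Oas3 was at 1.01 to 2.69 CPM (median 1.38) in the 60577 controls and at 4.88 to 47 CPM (median 25) in the HGS2 controls (3.95 ± 0.66, adjusted p = 2.06e-05), without overlap. Oas2 (3.0 ± 0.56, adjusted p = 8.37e-05) and Oas1a (2.62 ± 0.39, adjusted p = 5.8e-06) were also higher, and Oasl1 and Oasl2 were not called, at 0.78 ± 0.42 and 0.79 ± 0.34. Mx1 was at 0.28 to 2.44 CPM (median 2.21) and at 2.71 to 20.1 CPM (median 10.1) (2.69 ± 0.64, adjusted p = 0.00115), and Mx2 was higher by 1.57 ± 0.59, adjusted p = 0.0289. Irf7 was at 4.51 to 11.5 CPM (median 7.05) and at 22.4 to 197 CPM (median 67.6) (3.33 ± 0.51, adjusted p = 6.54e-06), with no overlap, and Usp18 was higher by 2.18 ± 0.57, adjusted p = 0.00263. Irf1, Irf9 and Stat2 were not called, at 0.31 ± 0.23, 0.74 ± 0.19 and 0.93 ± 0.30.

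Xaf1, a pro-apoptotic partner of XIAP, gave the smallest adjusted p-value, at 8.58 to 12.5 CPM (median 10.9) in 60577 and at 21.6 to 66.3 CPM (median 52.9) in HGS2 (2.1 ± 0.28, adjusted p = 7.96e-07). Rsad2 was at 0.486 to 2.95 CPM (median 1.67) and at 6.06 to 40.3 CPM (median 12.8) (3.33 ± 0.74, adjusted p = 0.000552), and Ifi44 at 0.498 to 2.33 CPM (median 0.687) and at 2.59 to 25.4 CPM (median 8.12) (3.51 ± 0.65, adjusted p = 7.39e-05). All 3 were without overlap. Cmpk2 (3.18 ± 0.61, adjusted p = 0.000112), Rtp4 (2.01 ± 0.43, adjusted p = 0.000415), Trim30a (2.02 ± 0.33, adjusted p = 1.6e-05) and Parp14 (1.3 ± 0.30, adjusted p = 0.000867) made up the rest of the effectors that were called. The sensors Dhx58 (2.42 ± 0.39, adjusted p = 1.62e-05), Zbp1 (2.24 ± 0.45, adjusted p = 0.000201) and Ifih1 (1.95 ± 0.30, adjusted p = 6.27e-06) were higher, and Ddx58 and Eif2ak2 were not called. Gbp2 was not called (-0.09 ± 0.33, adjusted p = 0.841), while Iigp1 was at 1.93 to 35.6 CPM (median 6.79) and at 8.25 to 212 CPM (median 54.2) (2.61 ± 0.62, adjusted p = 0.00112) and Gbp3 (1.11 ± 0.35, adjusted p = 0.00958), Igtp (1.25 ± 0.42, adjusted p = 0.0149) and Tgtp1 (1.2 ± 0.46, adjusted p = 0.03) were called higher in HGS2. The count stayed between 23 and 28 when each of the tumors was left out in turn. Beside it, Ptprc was at 54.9 to 108 CPM in the 60577 controls and at 77.8 to 430 CPM in the HGS2 controls and was itself called higher. All 5 macrophage markers were called higher, against 13.2% of all genes. Fibroblast markers summed to 2841 to 4733 CPM in the 60577 controls and to 12172 to 72401 CPM in the HGS2 controls, and tumor epithelium markers to 1490 to 2302 and to 42.2 to 745 CPM. The part of these cells in the difference was not tested.

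In monoculture the 2 lines could not be separated in the same way. Only Tgtp1 was called, at 2.91 and 3.75 CPM in the 60577 libraries and at 59.2 and 12.4 CPM in the HGS2 libraries (3.42 ± 0.77, adjusted p = 0.0362), while 7.55% of all genes were called higher in HGS2, and 6 members had an unadjusted p-value below 0.05, against 35.8% of all genes. The 2 HGS2 libraries differed from each other. Replicate 1 was above replicate 2 in all 40 members, more than 2-fold in 37, with a median ratio of 5.67 that ran from 1.17 for Irf1 to 24.1 for Ifi44, whereas only 5.52% of all expressed genes differed in that direction by more than 1 on the log2 scale. In the 60577 line the ratio of replicate 1 to replicate 2 had a median of 1.07 and ran from 0.569 to 1.70. Isg15 was at 189 and 24.8 CPM in the 2 HGS2 libraries, Ifit1 at 145 and 10.8 CPM and Xaf1 at 139 and 24.3 CPM. Without HGS2 replicate 1, 9 members were called, 2 higher and 7 lower in HGS2, with a median log2 difference of -0.45, and without HGS2 replicate 2, 31 were called higher with a median of 1.84. Without either 60577 replicate the count was 0. In these fits the lone library was assumed to vary like the other line. The direction of the difference between the lines thus depended on which HGS2 library was used.

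Set beside its own control tumors, the 60577 line was higher in some of these genes and lower in others. In 21 of 40 members both cell line libraries were above all 6 control tumors, which held for 33% of the 13344 genes tested in both tables, among them Isg15 at 53.6 and 33.2 CPM, Bst2 at 221 and 241 CPM, Oas3 at 14.5 and 25.4 CPM and Usp18 at 19.2 and 17.3 CPM. In the control tumors those 4 genes reached at most 8.75, 44.3, 2.69 and 5.83 CPM. Zbp1 (0.658 and 0.719 CPM), Trim30a (2.44 and 2.02 CPM), Gbp2 (35.1 and 40.9 CPM) and Iigp1 (1.84 and 1.42 CPM) were below all the controls in both libraries, as were 32% of all genes, and 15 members overlapped. In HGS2 the spread of the 2 libraries was such that 39 members overlapped with the 7 control tumors and Mx1, at 1.45 and 0.243 CPM, was below all of them, while 20.2% of all genes were above and 22.1% below. Cell lines and tumors were scaled separately, which can shift all genes of one against the other, and no test was made between them.

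**Figure D5:**
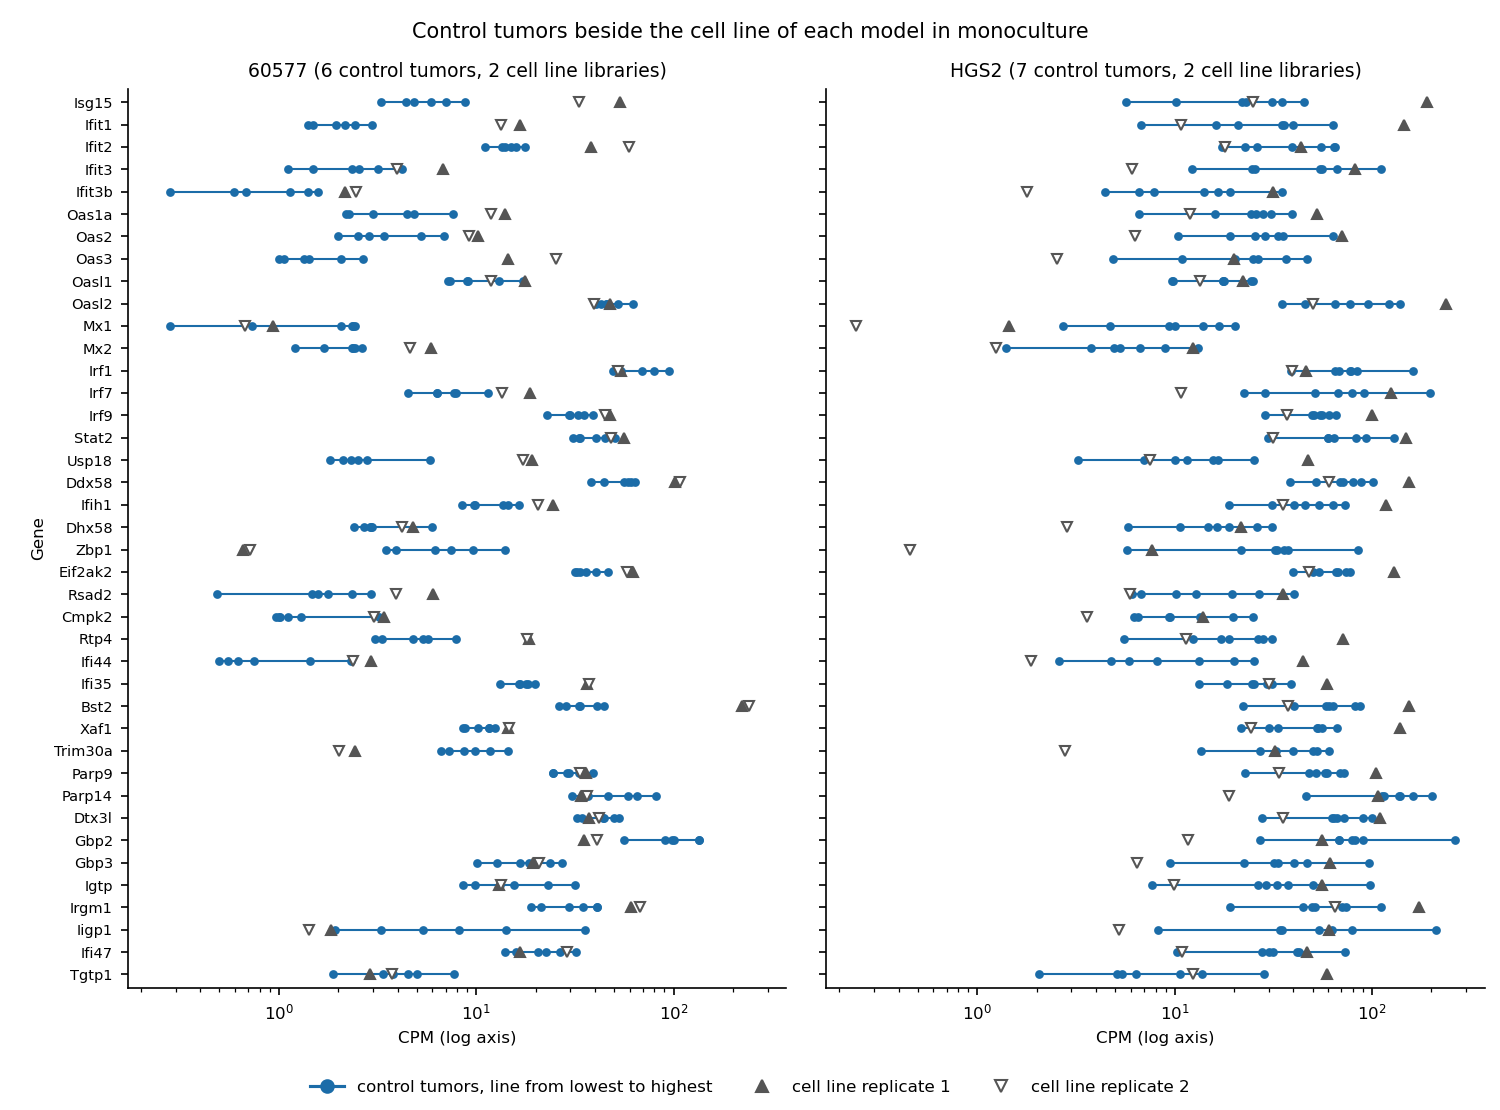
CPM (log axis) of the 40 genes in the control tumors (blue, joined from lowest to highest) and in the 2 cell line libraries (triangles) of 60577, left, and HGS2, right. The 60577 libraries lie above all control tumors in 21 genes and below in 4, and the 2 HGS2 libraries lie far apart, with replicate 1 higher in all 40 genes.

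The interferons themselves were hardly detected. Of 21 ligand genes none passed the filter. Ifnb1 was above 0 in 5 tumors and reached 0.199 CPM, an expected count of 5, in HGS2 TP2 treated replicate 2, the tumor with the highest values of 33 members. Ifng was above 0 in 28 of 34 tumors and in none of the cell line libraries, with a highest value of 1.46 CPM. It was at 0.0983, 0 and 0 CPM in the 60577 TP2 controls, at 0.108, 0.401, 0 and 0.201 CPM in the TP2 treated tumors and at 0.793, 0.465, 0.323 and 0.574 CPM in the TP3 tumors. All 4 TP3 tumors were above the 3 TP2 controls, with means of 0.539 and 0.0328 CPM, and the exact two-sided permutation test gave p = 0.0571, the smallest that 4 against 3 samples allow. Over the 6 comparisons of treated with control tumors the adjusted p-value was 0.343 there and in HGS2 TP2 (means of 0.519 and 0.118 CPM) and higher in the rest. This test was added after the values were seen.

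Of 6 receptor genes, none was called higher in 60577 at any time, and Ifnlr1, the lambda receptor, was lower at TP3 (-1.61 ± 0.22, adjusted p = 2.71e-05). Of 13 signaling genes, 2 rose at TP1, 5 rose and 1 fell at TP2, and 4 rose and 2 fell at TP3. Beside these counts, 9.65%, 14.8% and 14.2% of all genes were called higher at TP1, TP2 and TP3, and 10.2% lower at TP3. The share called lower at TP2 is not given here, so the 1 signaling gene that fell there stands without it. Socs1, the feedback inhibitor of the JAK kinases, rose at TP1 (1.53 ± 0.38), TP2 (2.21 ± 0.38) and TP3 (1.64 ± 0.37), and Irf8 rose at TP2 (1.65 ± 0.27) and TP3 (1.58 ± 0.27). Socs3 fell at TP2 (-1.25 ± 0.32) and TP3 (-1.58 ± 0.32), and Jak2 fell (-1.25 ± 0.16) while Jak1 rose (1.06 ± 0.13) at TP3. In HGS2 no gene of the pathway lists was called by edgeR at any time (0% of all genes). At HGS2 TP2, 4 of 13 signaling genes, 10 of 14 gamma targets and 17 of 19 type I targets had an unadjusted p-value below 0.05, against 7.59% of all genes. Their medians were 0.49, 1.52 and 1.09 on the log2 scale.

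Targets of the pathway outside the 40 members were tallied from 2 further lists. The shares of all genes called higher at TP1, TP2 and TP3 were 9.65%, 14.8% and 14.2%. Of 14 tested targets of interferon gamma, 1 rose at TP1, which is near that share, 6 at TP2 and 6 at TP3, and none fell. Gbp5 rose at TP2 (1.62 ± 0.41) and TP3 (1.44 ± 0.41), Nlrc5, the activator of MHC class I genes, at TP2 (1.84 ± 0.41), and Cxcl9, the chemokine that draws T cells, at TP3 (2.60 ± 0.96). Of 19 tested targets of type I interferon, 5 rose at TP1, 9 rose and 1 fell at TP2, and 5 rose at TP3. No share of all genes called lower at TP2 is given here to set beside the 1 that fell. Oas1g rose at TP1 (2.28 ± 0.67) and TP2 (2.61 ± 0.64), and Samd9l at TP2 (1.80 ± 0.19) and TP3 (1.68 ± 0.19), while Isg20 fell at TP2 (-1.15 ± 0.24). In the HGS2 controls 10 of the 19 type I targets and 3 of the 14 gamma targets were higher than in the 60577 controls, against 13.2% of all genes. Cxcl10 was at 3.61 ± 0.65 and Gbp6 at 3.88 ± 0.37.

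Markers of other cells also differed between treated and control 60577 tumors. They are set beside 9.65%, 14.8% and 14.2% of all genes called higher at TP1, TP2 and TP3, and 10.2% called lower at TP3. The shares of all genes called lower at TP1 and TP2 are not given here, so lower counts there stand without one. Ptprc was at 54.9, 104 and 87.2 CPM in the TP1 controls and at 159, 177 and 199.9 CPM in the TP1 treated tumors, with no overlap. It was at 108, 63.8 and 76 CPM in the TP2 controls, at 347, 227, 262 and 283 CPM in the TP2 treated tumors and at 298, 311, 291 and 289.9 CPM in the TP3 tumors, and it was called higher at all 3 times. Of 6 T cell markers, 2 rose at TP1, 5 at TP2 and 6 at TP3, with summed levels of 7.81 to 24.2 CPM in the TP2 controls, 63.2 to 129 CPM in the TP2 treated and 107 to 127 CPM in the TP3 treated tumors. Of 5 B cell markers, none rose at TP1 and all 5 rose at TP2 and at TP3. From TP2 to TP3, while 5 members fell, the mean T cell sum went from 86.9 to 116 CPM. The mean B cell sum went from 154 to 288 CPM and the mean macrophage sum from 832 to 1184 CPM. The mean sums of NK, fibroblast, endothelium, adipocyte and pancreatic acinar markers also rose. The mean conventional dendritic sum fell from 73.4 to 58.0 CPM and the mean neutrophil sum from 19.5 to 14.2 CPM. The mean tumor epithelium sum fell from 517 to 329 CPM and the mean mesothelium sum from 666 to 552 CPM. Of the neutrophil markers, 4 of 4 were higher at TP1 and 3 of 4 lower at TP2 and at TP3. Of 5 macrophage markers, 1 was called higher at each time. Their sum was 397 to 680 CPM in the TP1 controls and 782 to 932 CPM in the TP1 treated tumors. It was 336 to 822 CPM in the TP2 controls, 526 to 1112 CPM at TP2 and 1112 to 1289 CPM at TP3, with overlap only at TP2. At TP2, NK markers summed to 0.156 to 3.37 against 5.51 to 9.86 CPM. Conventional dendritic markers summed to 31.9 to 45.6 against 68.0 to 80.3 CPM. Of the 6 tested markers of tumor epithelium, 5, 5 and 6 fell. TP2 treated replicate 2, whose interferon-stimulated genes stood above those of its group, was the lowest of the 4 in Ptprc (227 CPM) and in the B cell sum (68.2 CPM). It was the second highest in the T cell (78 CPM), macrophage (967 CPM) and plasmacytoid dendritic (77.8 CPM) sums. The member Bst2 alone made 62.9 CPM of the last sum. This replicate was the highest in the sums of tumor epithelium (667 CPM), fibroblast (5196 CPM) and mesothelium (949 CPM) markers. In the cell lines Ptprc and Cd3e were at or near 0 (at most 0.0823 CPM). The part of cell composition in the tumor results was not tested.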

How the data were processed

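RNA was sequenced from omental tumors of both models and from both lines in monoculture. The authors deposited gene-level expected counts from RSEM, after trimming with Trim Galore 0.6.5 and alignment with STAR 2.7.0f per the submitters' processing notes, on the mouse build GRCm38. These counts were rounded, a gene was kept where 25% or more of the libraries reached 1 CPM, and libraries were scaled by TMM. Differences were tested two-sided with edgeR 4.0.16 (quasi-likelihood test, R 4.3.3) within each model, in 1 fit of both models for interactions and between-model controls, and in a separate fit for the lines, with Benjamini-Hochberg adjustment over all genes tested. Calls required an adjusted p below 0.05 together with a log2 fold change beyond 1 in either direction. Levels between genes were compared as CPM per kilobase of exon. The alternatives were limma-voom (limma 3.58.1), DESeq2 1.42.0, no filter, replicate blocks, a gene length and GC offset, other choices of samples and each library left out. Scripts were tested on simulated data.

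The members, role groups and lists were chosen with earlier results of these data known. All members are accounted for, and other genes are named only from pathway and marker lists: those called, up to 6 a list by fold change, and Ifnb1, Ifng and Ptprc. One gene of that rule is not reported here. The main fits used the group alone with no pairing, and the labels name no pairing. Replicate numbers entered as a block only in alternative fits. Samples of equal number were taken as possible pairs where they correlated above 0.1 in every pair. That held for 60577 TP2 (correlations of deviations 0.121 to 0.184), 60577 TP3 against TP2 controls (0.110 to 0.169) and HGS2 TP2 (0.173 to 0.307). HGS2 TP3 treated replicate 1 was left out of the main fits. No 2 replicates were alike within sampling noise. Of the members, 18 overlap another annotated gene, and Ifit3 with Ifit3b, Oas1a with Oas1g, Tgtp1 with Tgtp2 and the Trim30 genes are near copies between which reads can be split, so that their separate values are uncertain.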

Additional observations from a re-analysis of the deposited data

Results flagged for a closer look

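Over 120 combinations of a member and a group of 4 tumors, 16 had a lone outlying library, highest or lowest, by Dixon's test. For a single combination chance gives about 1 in 20. The same tumors enter for every member, so the 120 are not independent and their count was not tested against that share. Of the 16, 13 were high values of 60577 TP2 treated replicate 2. In that library Isg15 was at 34.3 CPM, Ifit1 at 54.8, Ifit2 at 76.6, Ifit3 at 83.0 and Ifit3b at 34 CPM. Oasl1 was at 21.4 CPM, Mx1 at 32.1, Usp18 at 25.8 and Ifih1 at 53.3 CPM. Rsad2 was at 17.9 CPM, Rtp4 at 21.8, Ifi44 at 13.7 and Parp9 at 66.8 CPM. In 60577 TP3 treated replicate 1, Mx1 at 5.62 CPM and Mx2 at 5.26 CPM stood above the other TP3 tumors. In HGS2 TP2 control replicate 2, which was high in 7SL and 7SK RNA, Irf1 was low at 38.6 CPM. In the HGS2 TP3 treated tumor that was left out of the fits, 10 of 40 members were above every HGS2 TP2 control, a share below the 30.2% of all genes for which this held.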

How the results depend on the processing

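Over 16880 values of single members under 50 settings, 187 calls were lost, 179 were gained and 4 values were called in the opposite direction. The 8 calls of 60577 TP1 became 5 with limma-voom, 2 with both models fitted together and 16 with only the compared groups, and 3 to 13 with 1 library left out. The 22 calls of TP2 became 14 and the 12 of TP3 5 with the length and GC offset and replicate block, and 12 to 24 and 5 to 17 with 1 library left out. From TP1 to TP2 in treated tumors DESeq2 gave 1 call and leaving out a library 0 to 3. From TP2 to TP3 the 5 calls became 3 with limma-voom or both models together, 2 with only the compared groups and 2 without the libraries high in 7SL and 7SK RNA, and 1 to 7 with 1 library left out. The interaction at TP2 gave 1 call with DESeq2 and 0 to 3 with a library left out. The 26 calls between controls stayed at 23 to 28. HGS2 stayed at 0 with each library left out. Between the cell lines the single call became 22 without a filter, 0 with limma-voom, 8 with DESeq2, 4 with the replicate block and 3 with the block and length and GC offset, and 0 to 31 with a library left out. The numbers of the lines correlated at -0.208, and with the pairing crossed 1 member was called. Where samples of equal number correlated in every pair, the replicate block left 18 calls at 60577 TP2 and 9 at TP3. The losses are named in the report, and no other call changed there. At 60577 TP1, where such samples did not correlate in every pair, the block left 6. Leaving out 1 library moved Rsad2 between -1.54 (without 60577 TP2 treated replicate 2) and 1.06 from TP1 to TP2 in treated tumors. Between the lines it moved Mx2 between -2.08 and 1.27, Usp18 between -1.28 and 1.42 and Gbp3 between -1.63 and 1.66, the lower values being those without HGS2 replicate 1. Over all genes, the 2535 calls of 60577 TP1 became 1605 with both models together, the 977 from TP1 to TP2 became 247 with only the compared groups and the 1278 from TP2 to TP3 became 803 with both models together. The 235 of the interaction at TP1 became 111 without a filter and 721 with DESeq2, the 1120 at TP2 became 547 with the block and offset, the 3577 between controls became 5377 without a filter, and the 2189 between the lines became 3849 without a filter. Leaving out the libraries high in 7SL and 7SK RNA and crossing the pairing were chosen after seeing the data. The causes were not tested. The interferon genes themselves stayed under the filter, and whether depth limits them was not tested.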
